A study of Mus musculus with 6 samples.

Results

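The genes followed here mark the projection neurons of the striatum, in newborn mouse hemibrains. They are Drd1, Drd2, Adora2a, Ppp1r1b, Rarb, Foxp1, Pde10a and Rasgrp2, taken by symbol from the count table. All 8 were found among its 24391 genes, and all 8 were among the 15925 genes that had enough counts to be tested. Of these, 7 were chosen by name. Rasgrp2 was added because it had been seen to be lower in the libraries labelled null, so its values below are a description with no test.

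The tissue was frozen hemibrain of mice at postnatal day 0, with 3 pups labelled Celf2 -/- (null, pups 2, 4 and 10) and 3 labelled Celf2 +/- (heterozygous, pups 6, 7 and 11). CELF2 is an RNA-binding protein that acts on splicing, stability and translation of messenger RNA. Both groups lacked at least 1 working allele by label, since the control pups kept 1 Celf2 allele and no wild-type pup was analysed here. Strain, sex, litter and the way the allele was made are not given in the labels. Xist, which is expressed from the inactive X chromosome of females, was at 1140 to 1346 CPM in heterozygous pup 7 and null pups 4 and 10 and under 1 CPM in the other 3, so the split was uneven between the groups. The p-values measure only the spread between these pups.

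The striatum is the input nucleus of the basal ganglia, and nearly all of its neurons are GABAergic projection neurons. They fall into a direct pathway, which carries the dopamine receptor DRD1, and an indirect pathway, which carries the dopamine receptor DRD2 and the adenosine receptor ADORA2A. DRD1 raises and DRD2 lowers cyclic AMP in these cells, and DARPP-32, PDE10A and the Rap activator RASGRP2 lie downstream. The transcription factors RARB and FOXP1 take part in the birth and maturation of the same neurons.

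Promoter windows from RefSeq on GRCm38.p6, with 250 bases before and 50 bases after an annotated start, were held for 6 of the 8 genes, with 11 start sites in all. The Rarb window is shown because its product is a retinoic acid receptor and its own promoter carries a response element for such receptors. The first of 2 Rasgrp2 windows is shown because that gene had the largest difference between the groups. Capitals in the Rarb window mark 2 half-sites, GGTTCA and AGTTCA, in direct repeat with 5 bases between them. The Rarb window is chr14:16575427-16575726 (minus strand, printed 5′ to 3′) and the Rasgrp2 window is chr19:6399625-6399924 (plus strand).
Rarb: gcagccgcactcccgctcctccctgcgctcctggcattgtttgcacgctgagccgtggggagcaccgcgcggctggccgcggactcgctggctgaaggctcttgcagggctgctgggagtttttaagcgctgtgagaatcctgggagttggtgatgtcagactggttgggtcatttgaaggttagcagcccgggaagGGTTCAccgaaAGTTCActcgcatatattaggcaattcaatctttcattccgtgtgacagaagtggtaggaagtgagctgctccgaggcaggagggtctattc
Rasgrp2: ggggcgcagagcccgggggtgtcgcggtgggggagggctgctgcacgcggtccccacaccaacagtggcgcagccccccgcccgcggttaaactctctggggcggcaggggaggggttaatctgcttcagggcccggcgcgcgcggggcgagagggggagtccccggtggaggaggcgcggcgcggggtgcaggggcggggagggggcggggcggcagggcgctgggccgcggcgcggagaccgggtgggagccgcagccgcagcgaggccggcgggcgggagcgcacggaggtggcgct

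Both strands of all windows were searched for such direct repeats, with 5, 2 or 1 bases between half-sites. A half-site was AGGTCA or AGTTCA, or the same with G as its first base. The repeat in the Rarb window, which begins 53 bases before the start, was the 1 match among the 11 windows. Repeats 5 bases apart were found in 32 of 32851 mouse promoter windows of that length (0.0974%), repeats 2 bases apart in 0.268% and repeats 1 base apart in 0.222%. The Rasgrp2 window shown holds 80.0% G and C, against 57.7% in the Rarb window and a median of 52.7% over all promoter windows. The second Rasgrp2 window (chr19:6401455-6401754) holds 66.0%. These letters describe the windows, and no binding was measured.

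Library totals lay between 28831997 and 36531980 counts. Celf2 itself was at 362 to 459 CPM (counts scaled to a common depth, on library sizes adjusted by TMM) in heterozygous libraries and at 331 to 448 CPM in those labelled null, and a gene total does not show which exons were read, so it does not check the labels. Rn45s, a ribosomal transcript, made up 11.8% of null pup 2 and at most 1.27% of the other libraries. Neuronal genes (Tubb3, Stmn2, Map2, Snap25, Syt1 and Rbfox3) summed to 5228 to 5981 CPM, whereas the liver gene Alb reached at most 0.101 CPM. The summed level of 8 Hox genes of the hindbrain was 10.1 to 85.1 CPM in heterozygous libraries and 1.90 to 6.10 CPM in those labelled null. The part of that difference in the striatal values was not tested.

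Per length, Rasgrp2 was the most abundant of the 8 genes and Drd1 the least. In CPM per kilobase of gene model, means over the 6 libraries were 40.3 ± 7.50 for Rasgrp2, 24.2 ± 1.93 for Ppp1r1b, 22.0 ± 2.07 for Foxp1 and 12.4 ± 1.31 for Pde10a (SD, n = 6). They were 6.04 ± 0.616 for Drd2, 5.25 ± 0.661 for Rarb, 5.10 ± 0.773 for Adora2a and 1.71 ± 0.237 for Drd1 (SD, n = 6). Values of Ppp1r1b and Foxp1 overlapped over the libraries, as did those of Drd2, Rarb and Adora2a. Every other step in this order was free of overlap, with the lowest Rasgrp2 library at 30.7 against 25.9 for the highest Ppp1r1b library. On this scale 87.9% of the genes tested had a lower mean than Rasgrp2 and 23.0% a lower mean than Drd1.

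**Figure D1:**
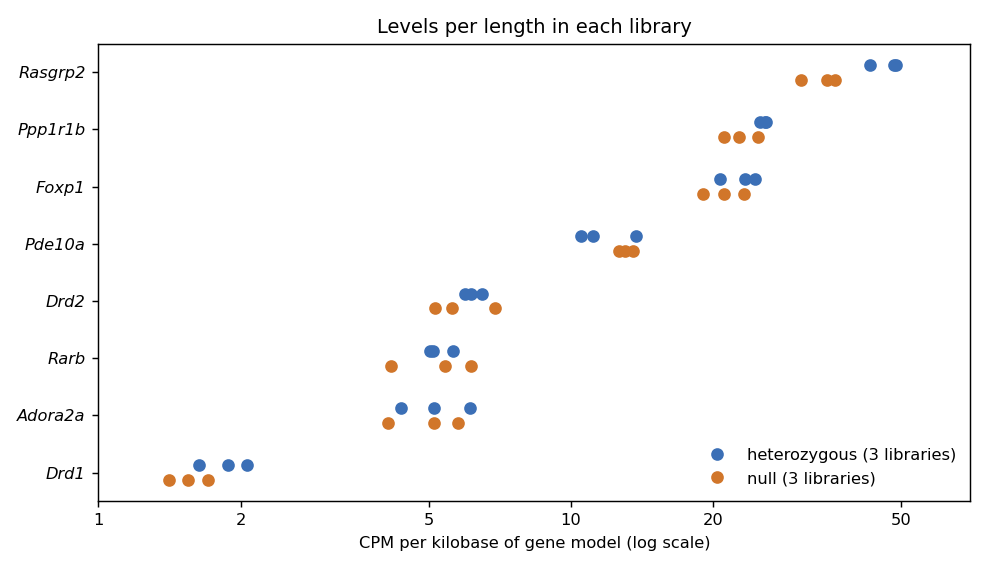
Level of each gene in CPM per kilobase of gene model (log axis), with 1 point per library and the 2 genotypes in different colours. Rasgrp2 lies highest, at 30.7 to 48.8, and Drd1 lowest, at 1.41 to 2.07.

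The receptor genes of the projection neurons were at low levels in both genotypes, and none of the 3 passed the test. Drd1, the receptor of the direct pathway, was at 7.40, 5.86 and 6.75 CPM in heterozygous pups 6, 7 and 11 and at 5.04, 6.10 and 5.54 CPM in null pups 2, 4 and 10. Null pups 2 and 10 lay below every heterozygous library, and null pup 4 lay above heterozygous pup 7. In the fit the difference on the log2 scale, null minus heterozygous, came to -0.26 (SE 0.16; 95% interval from -0.62 up to 0.10; edgeR adjusted p = 0.823). These levels rest on 128 to 275 counts per library, and in bulk tissue fewer cells of a type and less RNA per cell cannot be told apart.

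Drd2, the receptor of the indirect pathway, which is also made by dopamine neurons of the midbrain and by the pituitary, was at 9.23, 9.53 and 10.0 CPM in the heterozygous pups and at 10.7, 8.68 and 7.99 CPM in the null pups, in the same order. The highest and the lowest library were both null. The fitted log2 difference came to -0.08, with SE 0.15 and a 95% interval from -0.41 up to 0.26 (edgeR adjusted p = 0.957), and it was -0.20 without null pup 2 and 0.011 without null pup 10. Of 8 midbrain dopamine genes, 6 were lowest in null pup 2, where Drd2 was highest and Pitx3 had 0 counts. By contrast Slc18a2 was lowest in null pup 10, at 18.0 CPM, as Drd2 was. Nr4a2 was higher in every null library than in any heterozygous one, as were 6.21% of all genes. The summed level of that list was 104 to 119 CPM in heterozygous and 87.4 to 119 CPM in null libraries. Nr4a2 alone made up 32.5 to 39.6 CPM of the former and 49.3 to 51.3 CPM of the latter. The summed level of 6 pituitary genes was 6.35 to 79.3 CPM in heterozygous and 1.73 to 4.21 CPM in null libraries. The part of either tissue in the Drd2 values was not tested.

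Adora2a, whose receptor opposes DRD2 on the same cells, was at 13.3, 11.4 and 15.9 CPM in the heterozygous pups and at 15.0, 13.4 and 10.7 CPM in the null pups. The groups overlapped over nearly their whole range. Adora2a had a fitted log2 difference of -0.06, with SE 0.17 and a 95% interval from -0.43 up to 0.31 (edgeR adjusted p = 0.974), and its sign turned without null pup 10 (0.07) and without heterozygous pup 11 (0.07). The ratio of Drd1 to Drd2 in CPM per kilobase was 0.301 ± 0.0414 in heterozygous and 0.270 ± 0.0565 in null libraries (SD, n = 3 each), and the groups overlapped. The lowest ratio, 0.204, was that of null pup 2, and the highest, 0.347, that of heterozygous pup 6.

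Among the signalling genes, Rasgrp2 was lower in every library labelled null than in any heterozygous library, Ppp1r1b had a small gap in the same direction, and Pde10a had a positive fold change. Rasgrp2 encodes CalDAG-GEFI, a guanine nucleotide exchange factor that activates Rap in response to calcium and diacylglycerol. It was at 106, 107 and 94.1 CPM in heterozygous pups 6, 7 and 11 and at 79.2, 76.5 and 67.2 CPM in null pups 2, 4 and 10. The gap between the groups ran from 94.1 down to 79.2 CPM. The means were 102 ± 7.11 and 74.3 ± 6.29 CPM (SD, n = 3 each), a log2 fold change of -0.46 (SE 0.09), or 72.7% of the heterozygous level. Without single libraries the fold change lay between -0.52 and -0.39, and with library size alone, where the median of all genes was -0.086, it was -0.55. The gene was selected for this difference, so its gap, SE and spread over settings describe it and test nothing.

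Ppp1r1b encodes DARPP-32, the phosphoprotein that turns dopamine signals into inhibition of protein phosphatase 1. It was at 42.9, 41.9 and 43.2 CPM in the heterozygous pups and at 37.8, 35.1 and 41.3 CPM in the null pups. The 3 heterozygous values lay close together and null pup 10 came within 1 CPM of them. The fitted log2 difference came to -0.16, with SE 0.10 and a 95% interval from -0.38 up to 0.05 (edgeR adjusted p = 0.807), and it was -0.11 without null pup 4.

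Pde10a encodes the phosphodiesterase that breaks down cyclic nucleotides in these neurons. It was at 90.9, 85.7 and 112 CPM in the heterozygous pups and at 103, 110 and 106 CPM in the null pups. Heterozygous pup 11 was the highest library and the other heterozygous pups were the lowest, so the groups overlapped. The fitted log2 difference came to 0.15, with SE 0.10 and a 95% interval from -0.08 up to 0.37 (edgeR adjusted p = 0.844), and it was 0.27 without heterozygous pup 11 and 0.07 without heterozygous pup 7.

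The transcription factor genes showed no gap between the genotypes. Rarb was at 19.0, 21.2 and 19.3 CPM in the heterozygous pups and at 23.2, 20.5 and 15.7 CPM in the null pups, so the highest and the lowest library were again null. The fitted log2 difference came to -0.003, with SE 0.14 and a 95% interval from -0.32 up to 0.32 (edgeR adjusted p = 0.997). Its sign turned without heterozygous pup 7 (0.05) and without null pup 10 (0.14). Foxp1, a forkhead repressor that cortical neurons also express, was at 184, 174 and 154 CPM in the heterozygous pups and at 174, 158 and 142 CPM in the null pups. The ranges overlapped from 154 to 174 CPM. The fitted log2 difference came to -0.11, with SE 0.09 and a 95% interval from -0.31 up to 0.09 (edgeR adjusted p = 0.871), and it was -0.04 without null pup 10 and -0.19 without null pup 2.

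**Figure D2:**
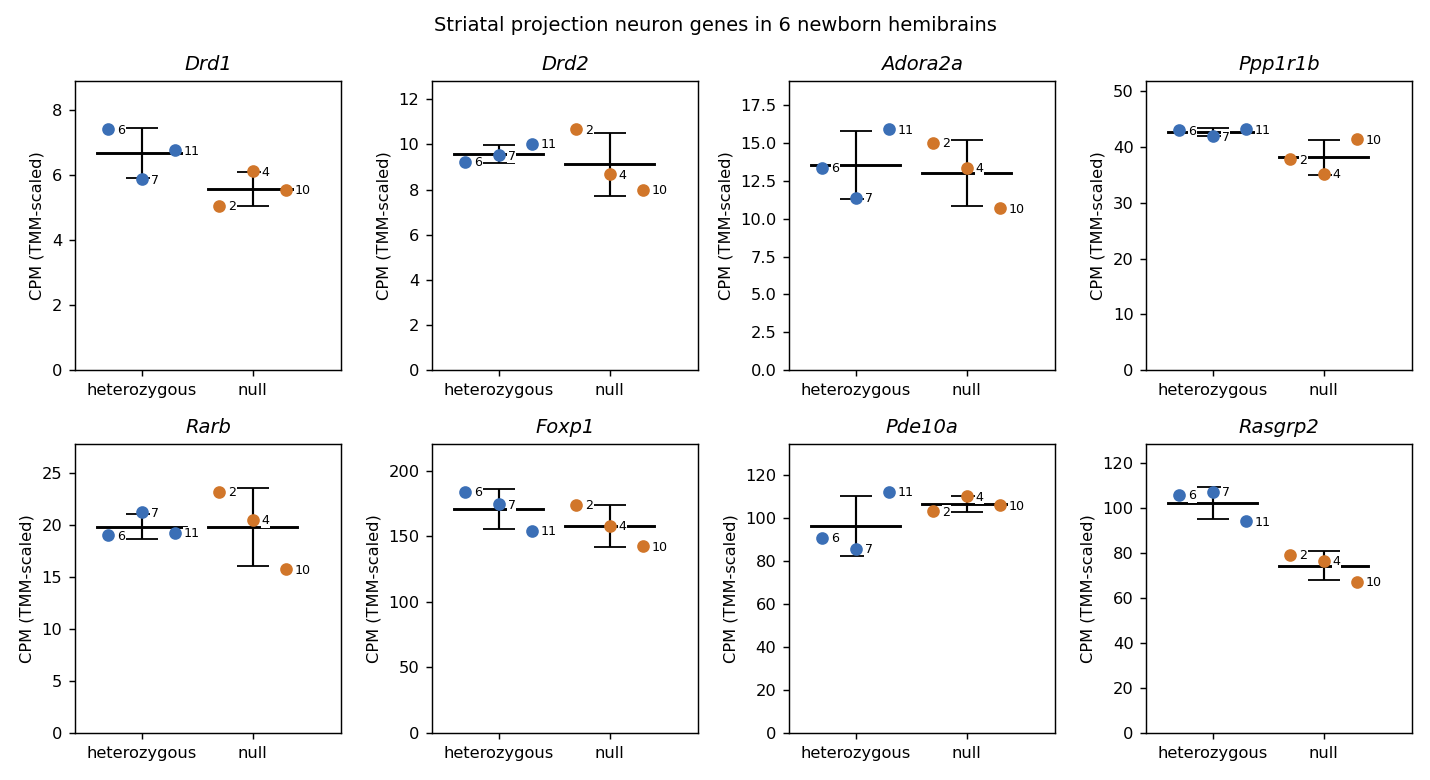
CPM on TMM-scaled library sizes for each of the 8 genes, from an axis starting at 0, with 1 numbered point per pup, the mean as a bar and 1 SD as whiskers (n = 3 each). Rasgrp2 separates the groups, with 94.1 to 107 CPM in heterozygous and 67.2 to 79.2 CPM in null libraries, and Ppp1r1b does so by a gap of under 1 CPM.

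Of the 7 genes chosen by name, 0 passed in either direction by edgeR's quasi-likelihood test, 0 had an unadjusted p under 0.05, and DESeq2 and limma-voom called 0 as well. Over all 15925 genes the edgeR test called 0.00628% lower and 0% higher. Of these 7, 6 had a fold change below 0 and the median was -0.08, where 50.3% of all genes lay below 0 and their median was -0.00093. With Rasgrp2, which was chosen for being lower, the median of the 8 was -0.09, and this was -0.18 without null pup 2 and -0.016 without null pup 10, so single libraries set its size. The groups did not overlap, with null lower, for 2 of the 8 genes, Rasgrp2 and Ppp1r1b, against 6.47% of all genes. Rasgrp2 was chosen for that difference, so nothing is read from this count.

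**Figure D3:**
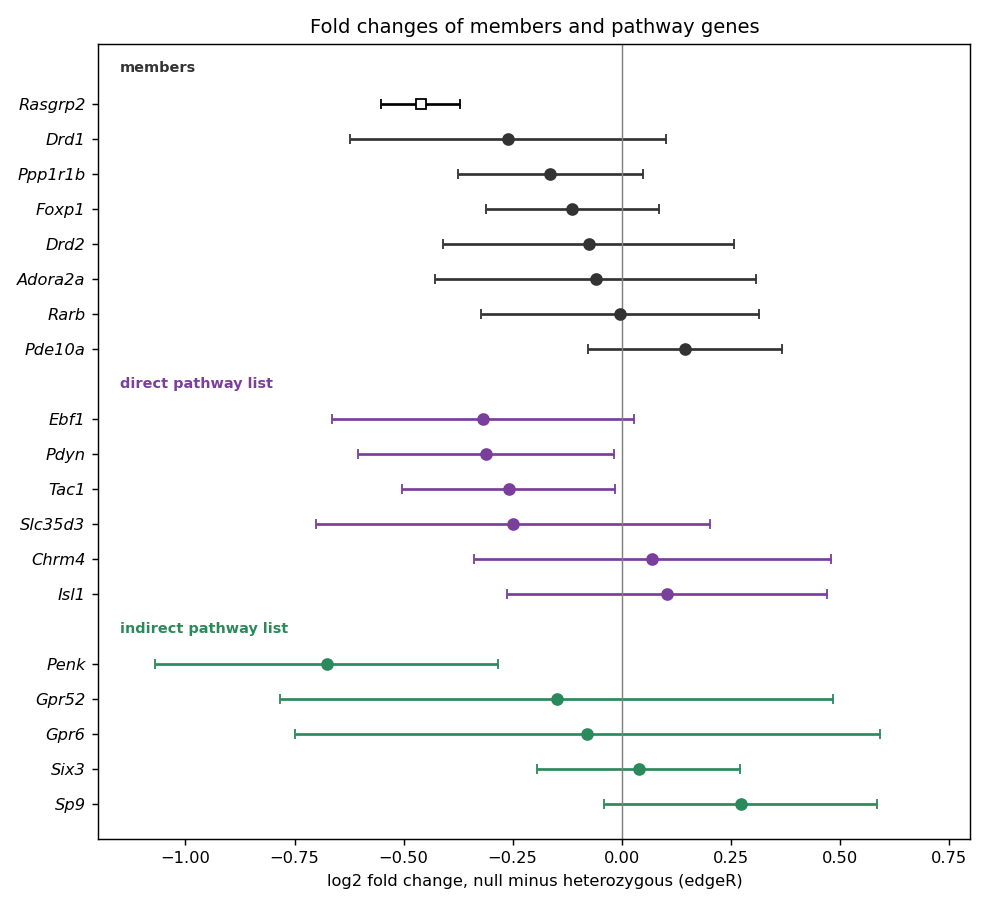
Log2 fold change, null minus heterozygous, of the 8 genes and of the direct and indirect pathway genes, from edgeR. Filled points carry 95% intervals, and the open square of Rasgrp2, which was chosen for its level, carries 1 SE. The intervals of all 7 genes chosen by name cross 0, and Penk has the lowest value, at -0.68.

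The 8 genes had no common profile over the libraries. Relative to each gene's mean over the 6 libraries, null pup 10 was the lowest library for Drd2, Adora2a, Rarb, Foxp1 and Rasgrp2, with log2 deviations of -0.20 to -0.37. In the same library Ppp1r1b lay at 0.04 and Pde10a at 0.07. Null pup 2 was the highest library for Drd2 (0.20) and Rarb (0.24) and the lowest for Drd1 (-0.27). Profiles were compared by the root mean square difference of log2(CPM + 0.1), each gene centred on its mean over the 6 libraries. Among the 28 pairs of these genes the nearest were Drd2 and Rarb (0.102), which are not markers of one pathway, and 1.75% of all tested genes lay nearer to Drd2 than Rarb did. The farthest pair was Pde10a and Rasgrp2 (0.364).

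Against 11557 other genes with at least 5 CPM, the nearest profiles to Rasgrp2 were those of Epha10 (0.071), Srr (0.075) and Vstm5 (0.078), which follows in part from the contrast that Rasgrp2 was chosen on. Drd1 was nearest to Stxbp6 (0.046), Onecut3 (0.060) and Cenpw (0.060), Adora2a to Ermard (0.077), Ovca2 (0.081) and Pcnxl2 (0.093), and Rarb to Sox17 (0.039), Slc1a5 (0.046) and Mfap4 (0.050). No other gene of the striatal lists was among these neighbours.

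**Figure D4:**
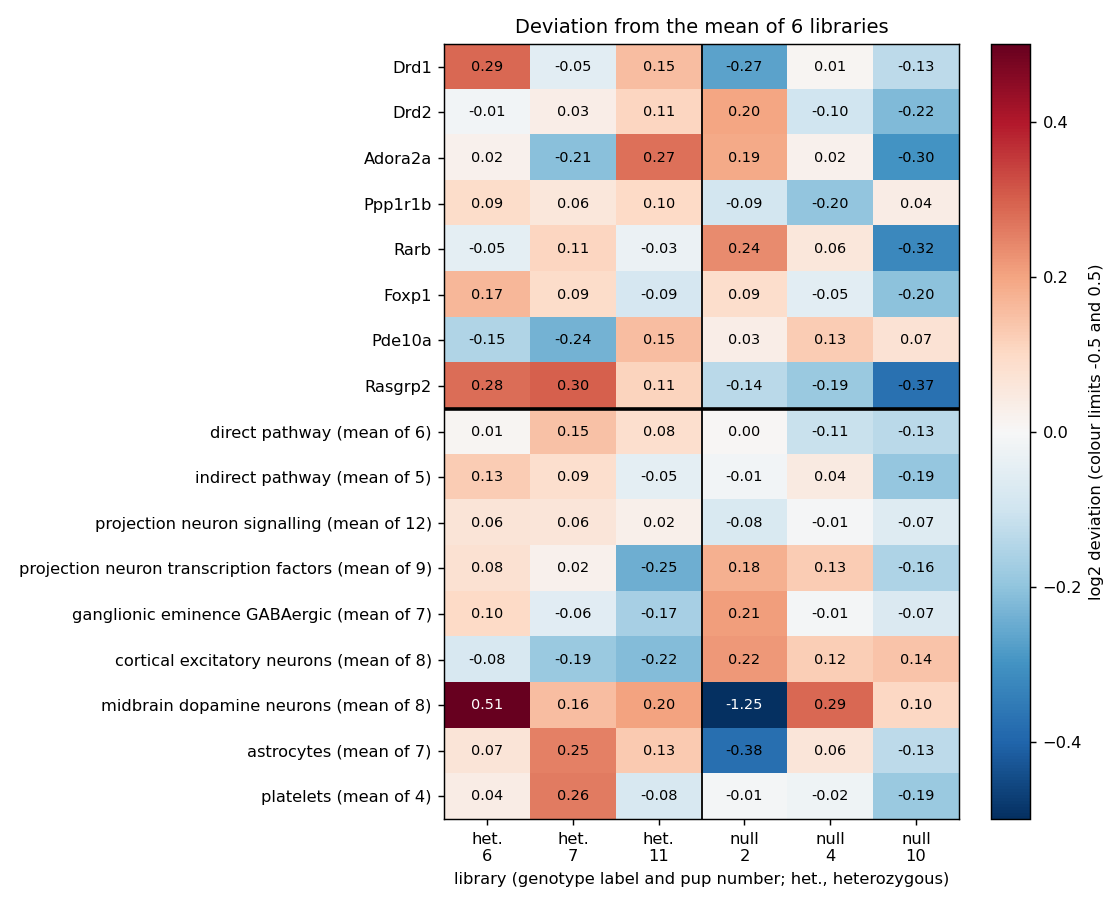
Log2 deviation of each gene (upper rows) and mean deviation of each gene list (lower rows) from the mean of the 6 libraries, with colours limited to -0.5 and 0.5. Rasgrp2 changes sign between the genotypes, whereas null pup 10 is low for Drd2 (-0.22), Adora2a (-0.30) and Rarb (-0.32) and null pup 2 is not.

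Other genes of the direct pathway had mixed signs. Of 6 listed, all were tested, 0 passed, 4 had a fold change below 0 and the median was -0.25. Pdyn, the dynorphin precursor, was at 16.7, 17.0 and 14.5 CPM in the heterozygous pups and at 11.3, 13.9 and 13.7 CPM in the null pups. Tac1, the substance P precursor, was at 30.5, 36.7 and 29.9 CPM in the former and 27.4, 27.5 and 26.2 CPM in the latter. In both genes every null library lay below every heterozygous one, as it did for 6.47% of all genes. The log2 fold changes were -0.31 (SE 0.13) and -0.26 (SE 0.11), with an edgeR adjusted p of 0.683 and 0.682. An unadjusted p under 0.05 was reached by these 2 of the 6, against 2.93% of all genes lower. The transcription factor genes differed in sign, with Ebf1 at -0.32 (SE 0.16, adjusted p = 0.733) and Isl1 at 0.10 (SE 0.17, adjusted p = 0.952). Without heterozygous pup 7, Tac1 came to -0.16 and Ebf1 to -0.15. The muscarinic receptor gene Chrm4 was at 0.07 and the transporter gene Slc35d3 at -0.25, both near 3 CPM. The sign of Isl1 turned without null pup 2 (-0.097) and that of Chrm4 with library size alone (-0.009).

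Among indirect pathway genes, Penk had the lowest fold change and the transcription factors Six3 and Sp9 had positive values. Of 5 listed, all were tested, 0 passed, 3 lay below 0 and the median was -0.08. Penk, the enkephalin precursor, was at 36.8, 43.6 and 29.8 CPM in the heterozygous pups and at 23.7, 27.5 and 17.8 CPM in the null pups. All 3 null libraries lay below all 3 heterozygous ones, as for 6.47% of all genes, and null pup 10 was lowest. For this gene the fitted log2 difference came to -0.68, with SE 0.18 and a 95% interval from -1.07 up to -0.28 (edgeR adjusted p = 0.496). DESeq2 gave an adjusted p of 0.0372, and the edgeR fit with pups 10 and 11 as a term gave 0.0497. Over all alternatives the adjusted p ranged from 0.0372 to 0.9999, the latter without heterozygous pup 7. In that fit all 7 genes chosen by name and all pathway genes had the same adjusted p of 0.9999, so it is not particular to Penk. The log2 difference of Penk there was -0.54 (SE 0.18). Sp9, needed for the making of these neurons, was at 0.27 (SE 0.14, adjusted p = 0.763) and Six3 at 0.04 (SE 0.11, adjusted p = 0.972), and Sp9 was at 0.12 without null pup 2. The orphan receptor genes Gpr6 and Gpr52, each near 1 CPM, were at -0.08 and -0.15 with SEs of 0.30 and 0.29. The sign of Gpr6 turned without heterozygous pup 7 (0.22), and that of Six3 with library size alone (-0.053). Penk and Pdyn are also made outside the striatum.

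Within libraries the ratio of Pdyn to Penk in CPM per kilobase was 0.246 ± 0.0270 in heterozygous and 0.324 ± 0.0903 in null libraries (SD, n = 3 each). Null pups 2, 4 and 10 stood at 0.265, 0.280 and 0.428 and the heterozygous libraries at 0.216 to 0.270. Null pup 2 lay within the heterozygous range, so the groups overlapped, while null pups 4 and 10 lay above it.

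No listed gene shared by both classes of projection neuron passed the test. Of 12 signalling genes, 11 lay below 0, 0 passed, 0 had an unadjusted p under 0.05 and the median was -0.10. Gng7, a G protein subunit of the receptor pathway, was at -0.15 (SE 0.08, adjusted p = 0.778), and the sodium channel subunit Scn4b at -0.34 (SE 0.28, adjusted p = 0.878) with a mean of 1.23 CPM. With library size alone, where the median of all genes was -0.086, these were -0.24 and -0.42. Of 9 transcription factor genes of projection neurons and their progenitors, 6 lay above 0, 0 passed and the median was 0.13. Gsx2, a factor of the progenitor zone that forms the striatum, was at 0.53 (SE 0.32, adjusted p = 0.808) and Zfp503 at -0.21 (SE 0.21, adjusted p = 0.906), and the sign of Zfp503 turned without heterozygous pup 7 (0.013).

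In the striosome and matrix list, which covers the compartments of the striatum, 4 of 6 genes lay above 0, 0 passed and the median was 0.09. The groups did not overlap for Lypd1 (-0.28, adjusted p = 0.717) and Calb1 (-0.26, adjusted p = 0.642), with null lower, as for 6.47% of all genes. One gene, the axon guidance receptor gene Epha4, did not overlap with null higher, against 6.21% of all genes, and had a fold change of 0.19 (SE 0.07, adjusted p = 0.639). It was chosen after its values were seen. An unadjusted p under 0.05 was reached by 1 gene lower and 1 higher, where 4.13% of all genes were higher.

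Genes of the retinoic acid pathway had 10 of 14 tested values below 0, a median of -0.10 and 0 calls. The list holds receptors as well as genes that handle the ligand of RARB. Among the receptors, Rara (0.12), Rarg (0.25) and Rxrg (0.09) lay above 0, and Rxra (-0.005) and Rxrb (-0.011) lay below. Crabp1, a retinoic acid binding protein, was at -0.50 (SE 0.17, adjusted p = 0.594) and Aldh1a1, a synthesis enzyme also found in midbrain dopamine neurons, at -0.85 (SE 0.58, adjusted p = 0.851). Aldh1a1 stood at 2.05 CPM in null pup 2, the library with the least En1 and Slc6a3, and at 5.81 to 14.4 CPM in the others. Without that pup its fold change was -0.44. The part of midbrain tissue in this value was not tested. Cyp26a1, a breakdown enzyme, was below the filter, with at most 0.228 CPM.

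Partners of the dopamine and adenosine receptors and of cyclic AMP had 9 of 12 tested values below 0, a median of -0.06 and 0 calls. Drd5, a receptor of the DRD1 class, was at -0.64 (SE 0.29, adjusted p = 0.708) with a mean of 1.08 CPM, and Pde4d at -0.21 (SE 0.13, adjusted p = 0.826). Drd3 was below the filter, with at most 0.197 CPM. The relatives of Rasgrp2 and other Rap regulators had 5 of 9 values below 0, a median of -0.01 and 0 calls. Rap1a, a target of RASGRP2, was at -0.17 (SE 0.09, adjusted p = 0.786) and Rasgrp4 at -0.16 (SE 0.21, adjusted p = 0.939). Among the relatives of Foxp1, Foxp2 was at -0.06 (SE 0.08, adjusted p = 0.937) and Foxp4 at 0.09 (SE 0.09, adjusted p = 0.904).

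**Figure D5:**
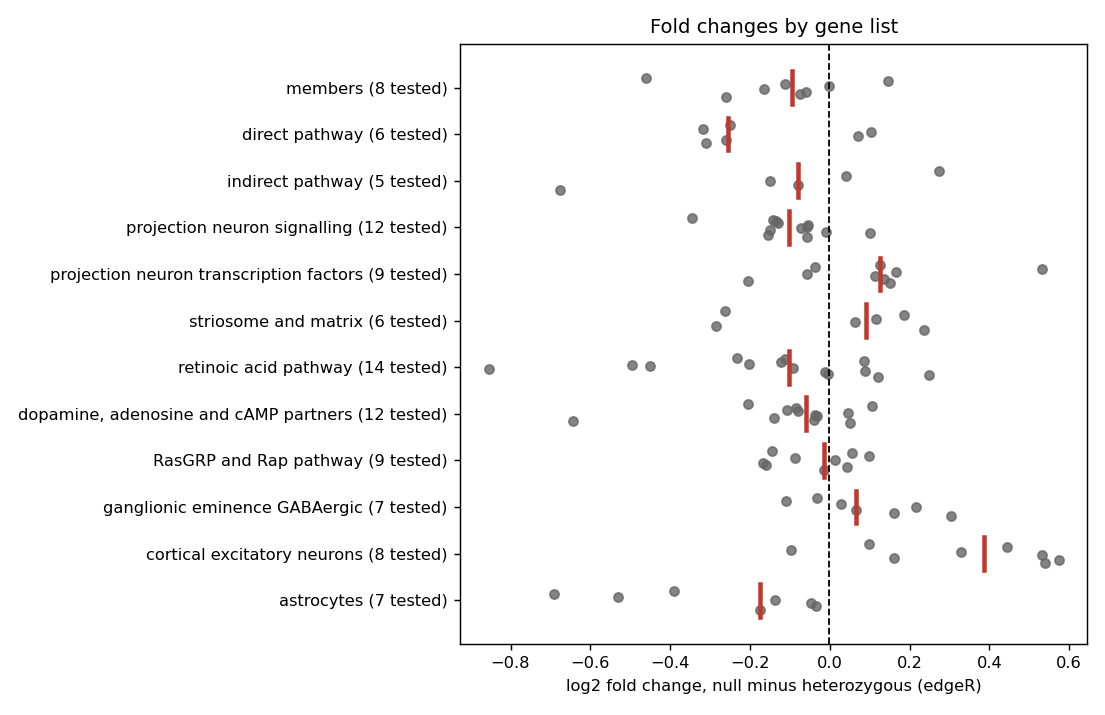
Log2 fold change, null minus heterozygous, of each tested gene (points) in 12 lists, with list medians as red bars and the median of all tested genes as a dashed line. The direct pathway median is -0.25, the transcription factor median 0.13 and the cortical median 0.39.

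Markers of other tissue differed in other directions. Of 8 genes of cortical excitatory neurons, 7 lay above 0, 0 passed and the median was 0.39. Fezf2 was at 0.54 and Tbr1 at 0.57 (adjusted p = 0.353 and 0.368). Neurod6, named after its values were seen, was at 0.53 and had the lowest edgeR adjusted p of the 8, at 0.062. An unadjusted p under 0.05 was reached by 5 of the 8, all higher, against 4.13% of all genes. The summed level of the 8 was 726 to 771 CPM in heterozygous and 934 to 974 CPM in null libraries, without overlap. The summed level of the 7 striatal genes chosen by name was 349.96 to 367 CPM in heterozygous and 329.6 to 369 CPM in null libraries, which overlapped. All 7 astrocyte genes lay below 0, with a median of -0.17 and 0 calls. Aqp4 was at -0.53 and S100b at -0.69 (adjusted p = 0.707 and 0.630). The part of tissue makeup in the striatal values was not tested.

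The other lists also had 0 calls. Of 8 midbrain dopamine genes 7 lay below 0, with a median of -0.36. The 6 tested Hox genes all lay below 0, with a median of -2.98 and Hoxc4 at -4.96 and Hoxd3 at -3.72, and the 2 tested pituitary genes were Gh at -5.34 and Pomc at -2.29. Without heterozygous pup 7 these came to -2.15, -2.35, -3.50 and -1.02. Of 7 oligodendrocyte lineage genes 6 lay below 0 (median -0.12), with Mbp at -0.35 and Mag at -0.90. The 5 choroid plexus genes lay above 0 (median 0.14), with Folr1 at 0.19 and Otx2 at 0.15. All 10 immediate-early genes lay above 0 (median 1.51), with Fos at 4.03 and Fosb at 5.46, and their summed level was 80.5 to 108 CPM in heterozygous libraries but 374, 1080 and 78.4 CPM in null pups 2, 4 and 10. In that null pup 4, Rasgrp2 lay between the other null values. Neuronal genes had a median of -0.07, with Stmn2 at -0.11 and Rbfox3 at -0.15. Ptprc, of leukocytes, was at 0.16 within a list of 3 tested genes (median 1.18). Ttr, which is also 1 of the 5 choroid plexus genes, was at 0.02 within 3 tested genes of the liver list (median 0.02). Myh6 was at -0.45 and Acta1 at -0.10 within 4 tested heart and muscle genes (median -0.53).

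RASGRP2 is also abundant in platelets. Of 10 platelet genes 4 were tested, 0 passed, 3 lay below 0 and the median was -0.18, and the groups overlapped for each of the 4. The summed level of all 10 was 36.9 to 44.5 CPM in heterozygous and 34.5 to 39.2 CPM in null libraries. Gp1bb was at 17.9 to 24.7 CPM (log2 fold change -0.17) and Pf4 at 3.12 to 4.95 CPM (0.05). The 6 untested genes were at most 0.315 CPM, and Gp6 had 0 counts in every library, which allows up to 0.118 CPM in the shallowest (3 counts, counting error only). The integrin Itga2b was at -0.29 (SE 0.18, adjusted p = 0.812) and Gp1ba at -0.19 (SE 0.19, adjusted p = 0.897). The part of platelet RNA in the Rasgrp2 values was not tested. Of 9 red cell genes 6, all of them globin genes, were listed at 0 in every library. Whether reads of these globin genes were counted at all was not tested, so the zeros do not measure red cell RNA. Alas2 was the 1 tested, at 4.77 to 9.93 CPM and a log2 fold change of -0.34 (SE 0.23, adjusted p = 0.840).

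In the GENCODE M21 annotation, 5 of the 8 genes share their span with another gene. Rasgrp2 is overlapped on the opposite strand by Gm14965, Rarb by Top2b and Gm48162, Ppp1r1b by 1700003D09Rik, and Pde10a by Gm17087, while Foxp1 shares its strand with Gm20696. Whole gene spans were compared and not exons, so whether such partners share reads was not checked. For partners on the opposite strand this also depends on the strand setting, which is not given in the sources used here. A strand setting would not separate Foxp1 from Gm20696.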

How the data were processed

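RNA of 6 newborn hemibrains was measured by RNA-seq. The authors deposited whole-number counts per gene symbol with a gene length in bases. The labels' protocols name TRIzol extraction and a stranded total-RNA kit, whereas the molecule field and the design text name poly(A) RNA, and this was not resolved. The submitters' processing notes name STAR, cutadapt, Picard, bedtools, CASAVA and MACS2, with hg19 and mm9 as builds. The counter, its strand setting and its annotation were not given in the sources used here.

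Genes were kept by filterByExpr (15925 of 24391) and tested in R 4.3.3 by edgeR 4.0.16 (quasi-likelihood, robust, TMM), and p-values were adjusted over all genes by Benjamini-Hochberg (threshold 0.05). SE is the fold change over the square root of F. CPM use TMM-scaled library sizes. Totals were 28831997 to 36531980 counts and the biological coefficient of variation was 13.9%. DESeq2 1.42.0 and limma 3.58.1 were alternatives. The steps were tested on simulated counts.

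The genes and the 25 lists were chosen with earlier results of these data known. Named were all 8 genes, all direct and indirect pathway genes, and from other lists calls and the 2 largest changes with at least 1 CPM, and for genes ranging over at least 0.5 log2 units their 3 nearest profiles. Promoters came from RefSeq (GRCm38.p6).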

Additional observations from a re-analysis of the deposited data

How the results depend on the processing

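Under 17 alternatives, 0 of the 7 genes chosen by name were called in any, and Rasgrp2 kept a fold change of -0.55 to -0.39. Genes called lower over the whole table numbered 1 as reported, 25 with DESeq2, 10 with Xist expression as a term, 5 with pups 10 and 11 as a term, 2 with upper-quartile factors, library size alone or no low-count filter, and 0 with DESeq2 size factors, a CPM minimum of 1, limma-voom, no robust estimation or Rn45s removed. Genes called higher numbered 39 with DESeq2, 6 with pups 10 and 11 as a term, 1 with no filter and 0 as reported. Leaving out single libraries gave 0 to 1 lower and 0 to 3 higher. Of the listed genes, DESeq2 called 5 lower (Penk, Hoxa2, Hoxa3, Hoxb2 and Hoxd3) and 4 higher (Fezf2, Tbr1, Neurod6 and Nr4a2), pups 10 and 11 as a term 1 lower (Penk) and 1 higher (Neurod6), Xist as a term 1 lower (Hoxc4) and no filter 1 higher (Neurod6). As reported, 22 of 163 listed genes tested had an unadjusted p under 0.05 and were lower, and 9 were higher. Over all genes these shares were 2.93% and 4.13%. The lists were chosen with earlier results of these data known, so nothing is read from these counts.

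The median of the 8 genes was -0.19 with library size alone, where the median of all genes was -0.086, and -0.18 to -0.016 without single libraries. Signs turned for Adora2a with Xist as a term (0.059), for Rarb with Rn45s removed (0.0017) and with Xist as a term (0.025), and with library size alone for Chrm4 (-0.0090) and Six3 (-0.053). Without single libraries Drd2 ranged from -0.20 to 0.011, Adora2a from -0.17 to 0.072, Rarb from -0.13 to 0.14, Isl1 from -0.097 to 0.23, Gpr6 from -0.30 to 0.22, Six3 from -0.043 to 0.086 and Zfp503 from -0.37 to 0.013. Of 54 genes whose fold changes were followed through these alternatives, 7 changed sign and 33 kept their sign but moved by over 1.5 times without some single library. Not every gene named above was among them. Epha4, Neurod6, Pf4, Gp1bb and the genes of the choroid plexus, leukocyte, liver, muscle and neuron lists were not followed in this way. The cause was not tested. No paired analysis was possible because the labels give no litter. Depth limits genes near 1 CPM, such as Gpr6 with 30 to 53 counts and Gsx2 with 22 to 53.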

Other observations

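Genes of striatal and other interneurons had a median log2 fold change of -0.32, with 5 of 8 below 0 and 0 calls. Slc18a3, the vesicular transporter of acetylcholine, was at 5.46, 11.4 and 5.67 CPM in heterozygous pups 6, 7 and 11 and at 3.23, 5.13 and 3.37 CPM in null pups 2, 4 and 10 (-0.93, SE 0.31, edgeR adjusted p = 0.585). Every null library lay below every heterozygous one, as for 6.47% of all genes. Heterozygous pup 7, the highest, also held the most Hox counts, at a summed 85.1 CPM. Cholinergic neurons of the hindbrain express the same gene, and their part was not tested. Without that pup the fold change was -0.50. Pvalb, of fast-spiking interneurons, was at -0.86 (SE 0.26, adjusted p = 0.527) with a mean of 1.09 CPM.

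Genes of the ganglionic eminences, where projection neurons and interneurons are born, had a median of 0.07, with 5 of 7 above 0 and 0 calls. The homeobox gene Dlx1 was at 72.4, 56.7 and 56.3 CPM in the heterozygous pups and at 84.1, 72.4 and 72.5 CPM in the null pups, with a log2 fold change of 0.30 (SE 0.11, adjusted p = 0.639). Dlx6 was at 0.22 (SE 0.16, adjusted p = 0.852).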
